A study of Mus musculus with 9 samples.

Results

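Fgf21, Gdf15, Igfbp1, Angptl4, Inhba, Inhbe and Fst encode proteins that liver cells secrete under metabolic or toxic stress, or that form or block activins. The 7 genes were chosen by symbol as rows of the deposited count table, which holds 37203 genes, and all 7 were among the 14581 genes that passed the filter on low counts. RNA came from livers of Wistar rats, described as male, at the end of a course of 8 weeks. Schisandrin B rats received carbon tetrachloride (CCl4), a solvent that injures hepatocytes, for 4 weeks and then schisandrin B, a lignan of Schisandra fruit, daily together with CCl4 for another 4 weeks. Fibrosis rats received CCl4 3 times a week for all 8 weeks, as 2 mL/kg of a mixture of 50% CCl4 in olive oil. Normal rats received an equal volume of olive oil in place of CCl4. Schisandrin B was given at 25 or 50 mg/kg in the study, and the labels do not say which dose the sequenced livers had. Each group had 3 libraries out of study groups of 8 animals. The labels do not state that each library is a separate animal, so p-values measure the spread between libraries, which may be partly technical.

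FGF21 is a hormone that signals through FGF receptors bound to the co-receptor beta-klotho, and liver makes it in fasting and when the integrated stress response is active. GDF15 is a distant member of the TGF-beta family that acts through GFRAL and RET on the hindbrain. IGFBP1 binds insulin-like growth factors in plasma, and insulin represses its gene. ANGPTL4 inhibits lipoprotein lipase and is a classic target of PPAR-alpha. Activins are dimers of inhibin beta chains, which are encoded by Inhba, Inhbb, Inhbc and Inhbe, and liver is the main source of the beta C and beta E chains. Follistatin, the product of Fst, binds activins and blocks them.

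Library totals ran from 10320299 to 16255167 counts, and levels are given as CPM, counts per library size after TMM scaling. A count of 3, taken as the floor, was worth 0.176 to 0.287 CPM per library. The root mean square log2 difference between pairs was 0.526 to 0.564 among schisandrin B libraries, 0.598 to 0.886 among fibrosis libraries and 0.582 to 0.624 among normal libraries. Both fibrosis pairs with replicate 1 were the most distant, at 0.850 and 0.886, and the third fibrosis pair lay within the range of the normal pairs. The summed CPM of 12 hepatocyte markers was 200010 to 220822 in schisandrin B, 88100 to 130093 in fibrosis and 241858 to 276890 in normal livers. Alb, albumin, was the largest single part of it, at 141271 CPM in schisandrin B, 50983 CPM in fibrosis and 172058 CPM in normal livers on average. Of the 12 markers, 1 rose (Fgg, a fibrinogen chain) and 6 fell in fibrosis against normal livers, 5 rose and 1 fell in schisandrin B against fibrosis livers, and edgeR called 0 in schisandrin B against normal livers, with 1 higher and 2 lower at an unadjusted p under 0.05 and 1 lower by DESeq2. Library totals alone gave 4 higher and 4 lower in schisandrin B against fibrosis livers. The 3 normal libraries held 0 counts of the Y-linked genes Kdm5d and Eif2s3y, which goes against the label male, whereas schisandrin B libraries averaged 12.3 ± 1.19 CPM and fibrosis libraries 8.04 ± 2.39 CPM of Kdm5d (SD, n = 3 each). A sex difference and the effect of CCl4 cannot be told apart in either comparison with normal livers. Between schisandrin B and fibrosis livers this limit does not arise, since all 6 libraries held counts of both genes. Col1a1, the main collagen of scar tissue, averaged 39.05 CPM in schisandrin B, 13.2 CPM in fibrosis and 10.2 CPM in normal livers. It was not called in fibrosis against normal livers (log2 difference 0.38) and was called higher in schisandrin B than in fibrosis (1.55, edgeR adjusted p = 0.0150) and normal livers (1.93, edgeR adjusted p = 0.0235). The call against normal livers was lost under 5 of 15 alternatives, and the schisandrin B libraries were at 25.2, 27.6 and 64.4 CPM of Col1a1.

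Fgf21 had the widest swing of the 7 genes. It stood at 6.31, 11.7 and 5.93 CPM in schisandrin B livers, at 529, 133 and 54.7 CPM in fibrosis livers, and at 11.5, 4.81 and 12.7 CPM in normal livers (replicates 1, 2 and 3 in each case). All fibrosis libraries lay above all others, and the schisandrin B and normal ranges overlapped. Within fibrosis the highest library had 9.68 times the level of the lowest.

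**Figure D1:**
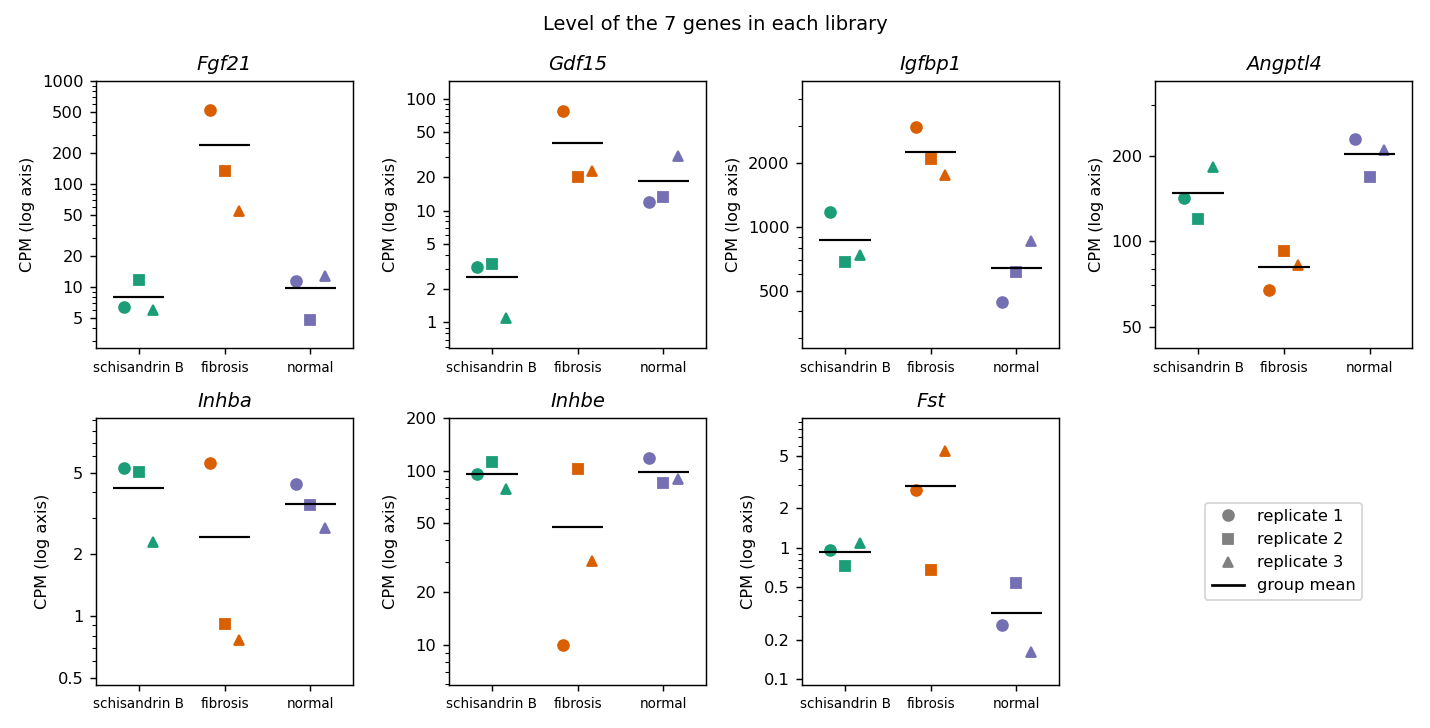
TMM-scaled CPM (log axis) of the 7 genes in each library, by group, with marker shapes for replicates 1 to 3 and a black line at the group mean. Fgf21 is high in all 3 fibrosis libraries (54.7 to 529 CPM), while Inhba, Inhbe and Fst spread widely within fibrosis.

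Gdf15 was at 3.15, 3.35 and 1.10 CPM in schisandrin B livers, at 77.2, 20.0 and 22.4 CPM in fibrosis livers, and at 12.0, 13.1 and 30.4 CPM in normal livers. The schisandrin B libraries were the lowest 3 of all 9, and normal replicate 3 was above 2 of the 3 fibrosis libraries. Igfbp1 was at 1177, 683 and 739.8 CPM in schisandrin B livers, at 2961, 2094 and 1755 CPM in fibrosis livers, and at 443, 613 and 859 CPM in normal livers. Every fibrosis library was above every other library for Igfbp1. Angptl4 showed the opposite order, with 142, 119.7 and 182 CPM in schisandrin B livers, 67.3, 92.9 and 82.8 CPM in fibrosis livers, and 229, 169 and 210.1 CPM in normal livers. Its 3 fibrosis libraries were the lowest of the 9, and the schisandrin B and normal ranges overlapped.

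Among the activin genes the fibrosis libraries disagreed. Inhba, the beta A chain of activin A, was at 5.26, 5.03 and 2.28 CPM in schisandrin B livers, at 5.59, 0.908 and 0.763 CPM in fibrosis livers, and at 4.38, 3.45 and 2.67 CPM in normal livers. Fibrosis replicate 1 was the highest library of all 9, and fibrosis replicates 2 and 3 were the lowest. Inhbe, the beta E chain, was at 95.9, 111 and 78.9 CPM in schisandrin B livers, at 10.04, 102 and 30.5 CPM in fibrosis livers, and at 118, 85.0 and 89.3 CPM in normal livers. Here fibrosis replicate 2 was within the range of the other groups and the other 2 fibrosis libraries were below it. Fst was low in every library, at 0.956, 0.729 and 1.10 CPM in schisandrin B livers, at 2.75, 0.681 and 5.46 CPM in fibrosis livers, and at 0.258, 0.542 and 0.162 CPM in normal livers. Those levels rest on 10, 10 and 12 counts in schisandrin B, on 34, 9 and 93 in fibrosis and on 3, 8 and 2 in normal livers, so that 2 normal libraries were at or under the floor.

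No single fibrosis library was the extreme one for all 7 genes. Replicate 1 was the highest of the fibrosis libraries for 4 genes (Fgf21, Gdf15, Igfbp1 and Inhba) and the lowest for Angptl4 and Inhbe. Replicate 2 was the highest for Angptl4 and Inhbe and the lowest for Gdf15 and Fst. Replicate 3 was the highest for Fst and the lowest for Fgf21, Igfbp1 and Inhba.

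The first comparison set fibrosis livers beside normal livers. Fgf21, Igfbp1 and Fst rose in fibrosis livers and Angptl4 fell, while edgeR did not call Gdf15, Inhba or Inhbe. As stated above, a sex difference and CCl4 cannot be told apart in these calls. Fgf21 averaged 239 ± 255 CPM in fibrosis and 9.68 ± 4.26 CPM in normal livers (SD, n = 3 each), a log2 change of 4.63 ± 0.85 (SE) or 24.8-fold, with an adjusted p of 0.00207 in edgeR's quasi-likelihood test. Of the genes tested, 148 had a larger log2 change than Fgf21. Without fibrosis replicate 1 its log2 change was 3.28 and it was still called. Igfbp1 averaged 2269.9 ± 622 CPM in fibrosis and 638 ± 209 CPM in normal livers, and its log2 change of 1.83 ± 0.32 (3.56-fold) had an edgeR adjusted p of 0.000658. Angptl4 averaged 81.0 ± 12.9 CPM in fibrosis and 203 ± 31.0 CPM in normal livers, 2.50-fold lower, at a log2 change of -1.32 ± 0.21 and an edgeR adjusted p of 0.000413. For these 3 genes and for Fst, every fibrosis library lay on 1 side of every normal library.

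Fst was 8.86-fold higher in fibrosis livers by the fit, at a log2 change of 3.15 with a 95% interval of 1.58 to 4.72 and an edgeR adjusted p of 0.00369. The fold rests on 136 counts in fibrosis and 13 in normal livers. It was 2.34 on the log2 scale without fibrosis replicate 3 and 3.78 without normal replicate 2, and called in both. Gdf15 averaged 39.9 ± 32.4 CPM in fibrosis and 18.5 ± 10.3 CPM in normal livers, and its log2 difference of 1.10 (95% interval -0.22 to 2.42, edgeR adjusted p = 0.149) was within the spread. Without fibrosis replicate 1 that difference was 0.20, and with scaling by library totals alone it was 1.49 and called (edgeR adjusted p = 0.0409). The groups also overlapped for both activin chains. Inhba had a log2 difference of -0.56 (95% interval -2.04 to 0.92), and Inhbe one of -1.04 (95% interval -2.47 to 0.38), with edgeR adjusted p-values of 0.516 and 0.202.

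The calls for both activin chains turned on 1 fibrosis library each. Without fibrosis replicate 1, Inhba was lower in fibrosis than in normal livers, at a log2 change of -2.06 and an edgeR adjusted p of 0.00269. Without fibrosis replicate 2, Inhbe was lower, at -2.26 and 0.00193 on the same measures. Inhbe was also called by limma voom with all libraries, at a log2 change of -1.61 and an adjusted p of 0.0448. Intervals that reach from a more than 4-fold decrease to above 0 do not show that either chain was unchanged.

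In all, 4 of the 7 genes were called in fibrosis against normal livers, 3 of them higher and 1 lower. Over all genes tested, 7041 of 14581 (48.3%) were called, 25.4% higher and 22.9% lower. The groups did not overlap for 4 of the 7 genes, against 55.8% of all genes (29% higher and 26.8% lower). The share of called members is near that of all genes, so the count itself is not a result about these genes. Their median log2 change was 1.10, beside 0.03 for all genes. Under library totals alone the median of all genes was 0.46 and calls split into 5651 higher and 1917 lower, against 3708 higher and 3333 lower with TMM. Fgf21, Igfbp1 and Fst were called higher and Angptl4 lower under both scalings.

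**Figure D2:**
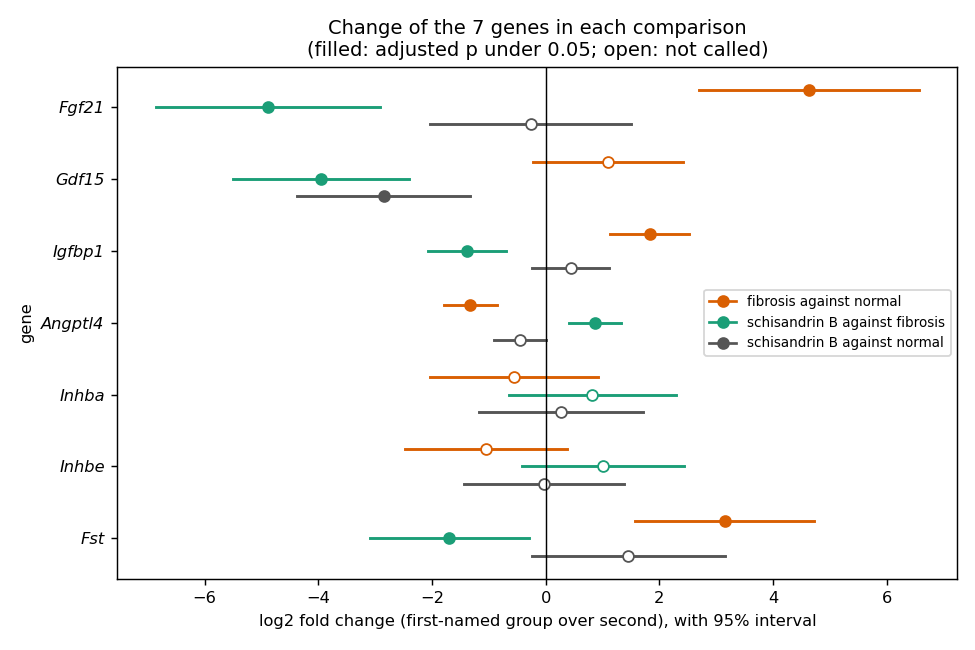
Log2 fold change of each of the 7 genes (points) with its 95% interval (bars) in the 3 comparisons, filled where the edgeR adjusted p was under 0.05. Fgf21 has 4.63 in fibrosis against normal, -4.89 in schisandrin B against fibrosis and -0.26 in schisandrin B against normal.

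The second comparison asked how schisandrin B livers differed from fibrosis livers that had CCl4 alone. Fgf21, Gdf15, Igfbp1 and Fst fell and Angptl4 rose, while edgeR called neither Inhba nor Inhbe. Fgf21 averaged 7.99 ± 3.25 CPM in schisandrin B and 239 ± 255 CPM in fibrosis livers (SD, n = 3 each), 29.7-fold lower, at a log2 change of -4.89 ± 0.87 (SE) and an edgeR adjusted p of 0.00174. Gdf15 averaged 2.53 ± 1.25 CPM in schisandrin B and 39.9 ± 32.4 CPM in fibrosis livers, 15.5-fold lower, at a log2 change of -3.96 ± 0.69 and an edgeR adjusted p of 0.00128. Only 73 genes of those tested had a lower log2 change than Fgf21, and 134 a lower one than Gdf15. Without fibrosis replicate 1 the log2 changes were -3.54 for Fgf21 and -3.05 for Gdf15, and both were called.

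Igfbp1 averaged 866 ± 270.1 CPM in schisandrin B and 2269.9 ± 622 CPM in fibrosis livers, 2.62-fold lower, at a log2 change of -1.39 ± 0.31 and an edgeR adjusted p of 0.00356. Angptl4 averaged 148 ± 31.6 CPM in schisandrin B and 81.0 ± 12.9 CPM in fibrosis livers, 1.83-fold higher, at a log2 change of 0.87 ± 0.21 and an edgeR adjusted p of 0.00566. For these 4 genes every schisandrin B library lay on 1 side of every fibrosis library. Fst was called lower, at a log2 change of -1.69 with a 95% interval of -3.10 to -0.29 and an edgeR adjusted p of 0.0476. Its groups overlapped, since fibrosis replicate 2 was below all schisandrin B libraries. The Fst call was lost under 8 of 14 alternatives, including each omission of a schisandrin B library (edgeR adjusted p = 0.0929 to 0.140), and without fibrosis replicate 3 the log2 difference was -0.89 (edgeR adjusted p = 0.283).

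Inhba averaged 4.19 ± 1.66 CPM in schisandrin B and 2.42 ± 2.74 CPM in fibrosis livers, a log2 difference of 0.82 (95% interval -0.65 to 2.29, edgeR adjusted p = 0.338). Inhbe averaged 95.4 ± 16.3 CPM in schisandrin B and 47.4 ± 48.0 CPM in fibrosis livers, a log2 difference of 1.01 (95% interval -0.41 to 2.43, edgeR adjusted p = 0.220). Without fibrosis replicate 1, Inhba was called higher in schisandrin B livers at 2.32 (edgeR adjusted p = 0.00130). Without fibrosis replicate 2, Inhbe was called higher at 2.22 (edgeR adjusted p = 0.00222). With all libraries limma voom also called Inhbe higher, at a log2 change of 1.58 and an adjusted p of 0.0492.

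Thus 5 of the 7 genes were called in schisandrin B against fibrosis livers, 1 higher and 4 lower, and 4 did not overlap. Over all genes, 47.3% were called, 22.5% higher and 24.8% lower, and 56.8% did not overlap (27.8% higher and 29% lower). With scaling by library totals alone the calls split into 2269 higher and 4698 lower, against 3284 higher and 3611 lower with TMM. The members' median log2 change was -1.39, beside -0.03 for all genes. Both comparisons described so far share the fibrosis libraries and are not independent of each other.

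**Figure D3:**
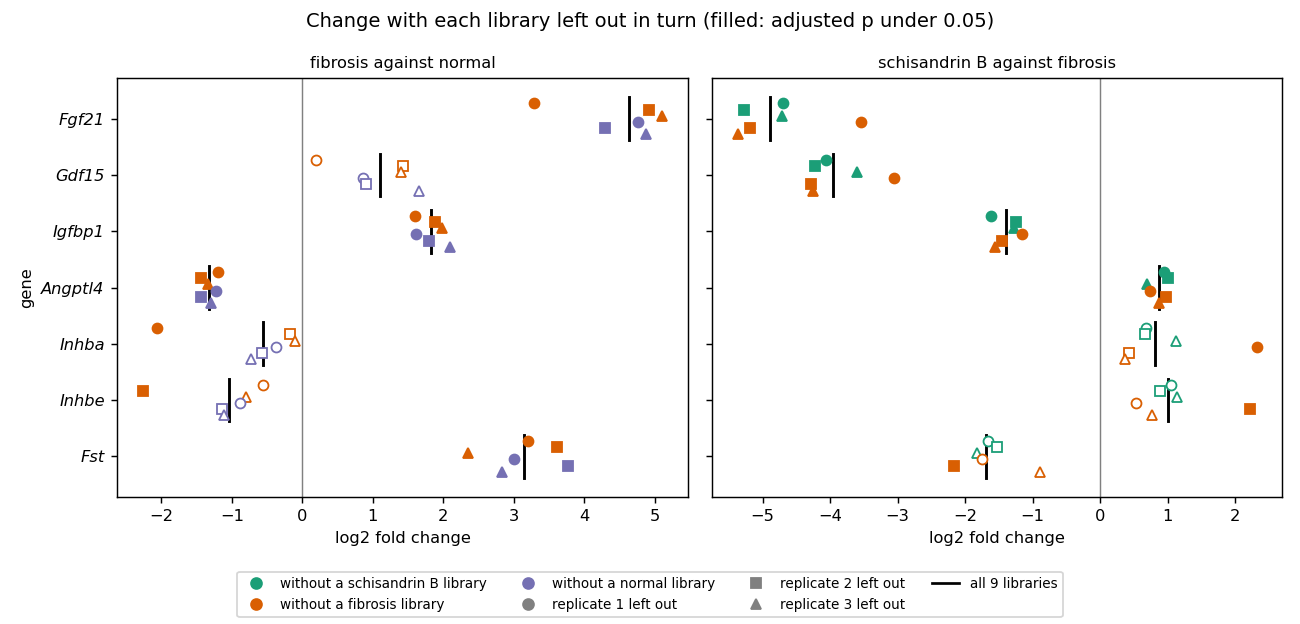
Log2 fold change of the 7 genes in fibrosis against normal and in schisandrin B against fibrosis livers. Each library was left out in turn (coloured markers, filled where the edgeR adjusted p was under 0.05), and black lines show all 9 libraries. The Inhba points without fibrosis replicate 1 (-2.06 and 2.32) and the Inhbe points without fibrosis replicate 2 (-2.26 and 2.22) are filled.

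The third comparison set schisandrin B livers, which also had CCl4, beside normal livers. Gdf15 was the only one of the 7 genes called, and it was lower: it averaged 2.53 ± 1.25 CPM in schisandrin B and 18.5 ± 10.3 CPM in normal livers (SD, n = 3 each). This was 7.22-fold lower, at a log2 change of -2.85 ± 0.67 (SE) and an edgeR adjusted p of 0.0276, and the groups did not overlap. Of the genes tested, 103 had a lower log2 change. The call was lost without any 1 of the schisandrin B libraries (edgeR adjusted p = 0.0710 to 0.0908), without normal replicate 3 (log2 difference -2.30, edgeR adjusted p = 0.0776) and with no filter on low counts (edgeR adjusted p = 0.105). Gdf15 thus had the order fibrosis, normal, schisandrin B, with the step from fibrosis to normal within the spread of the libraries.

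For Fgf21, the log2 difference between schisandrin B and normal livers was -0.26 with a 95% interval of -2.03 to 1.51. Igfbp1 had 0.44 (-0.23 to 1.12) and Angptl4 -0.45 (-0.92 to 0.01) on the same measures. Inhba had 0.26 (-1.18 to 1.71) and Inhbe -0.03 (-1.44 to 1.38). Fst had 1.46 (-0.24 to 3.15), with every schisandrin B library above every normal library, at 32 counts in schisandrin B and 13 in normal livers. These intervals allow differences of more than 2-fold for Fgf21, Igfbp1, Inhba, Inhbe and Fst, so none of these genes is shown to be back at the normal level. In this comparison 10.5% of all genes were called, 5.25% higher and 5.25% lower, and 38.7% did not overlap (19.9% higher and 18.8% lower), beside 1 called and 2 without overlap among the 7.

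The receptors and partners of the secreted factors were then examined as lists, described by how many of their genes were called. Over all genes tested, 25.4% rose and 22.9% fell in fibrosis against normal livers. In schisandrin B against fibrosis livers 22.5% rose and 24.8% fell, and in schisandrin B against normal livers 5.25% rose and 5.25% fell. A list count near these shares is not in itself a result about that list. Klb, which encodes beta-klotho, moved opposite to Fgf21. It stood at 6.79, 14.0 and 10.4 CPM in schisandrin B livers, at 5.26, 2.35 and 2.58 CPM in fibrosis livers, and at 22.1, 25.8 and 26.7 CPM in normal livers. The 3 groups did not overlap. Klb fell in fibrosis against normal livers by 2.88 on the log2 scale (SE 0.34, edgeR adjusted p = 5.05e-05) and rose in schisandrin B against fibrosis livers by 1.63 (SE 0.34, edgeR adjusted p = 0.00212). It was lower in schisandrin B than in normal livers, at -1.25 (edgeR adjusted p = 0.0275), a call lost without schisandrin B replicate 1 or 3 or any 1 normal library (edgeR adjusted p = 0.0592 to 0.102). Fgfr2, an FGF receptor, averaged 55.0 CPM in schisandrin B, 54.9 CPM in fibrosis and 102 CPM in normal livers, and was called lower than normal in both CCl4 groups (log2 change -0.88 and -0.89). Its schisandrin B call was lost without schisandrin B replicate 2 or 3 or normal replicate 3 (edgeR adjusted p = 0.0506 to 0.0571). Of 5 receptor genes tested, 2 fell and 0 rose in fibrosis against normal, 2 rose and 0 fell in schisandrin B against fibrosis, and 2 fell and 0 rose in schisandrin B against normal livers. Gfral and Ret, which form the GDF15 receptor, were too low to be tested.

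**Figure D4:**
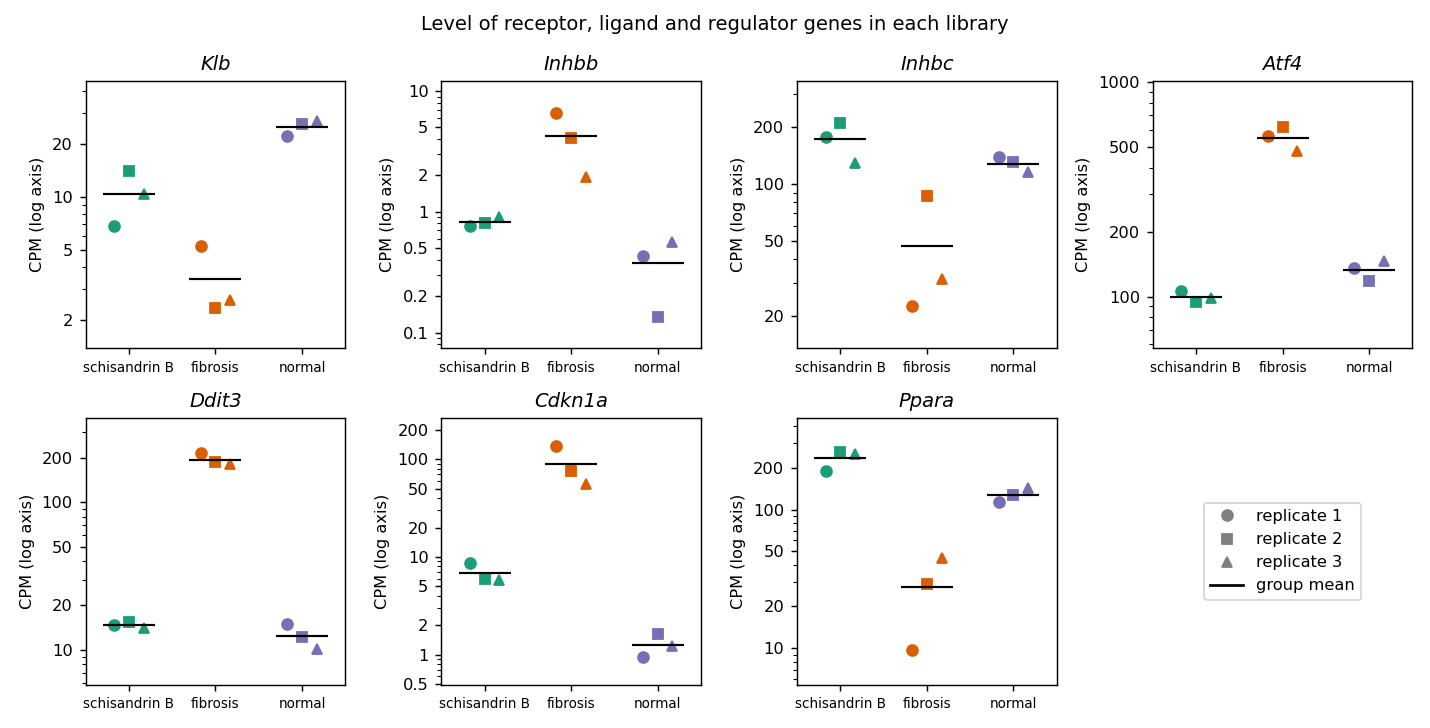
TMM-scaled CPM (log axis) of Klb, Inhbb, Inhbc, Atf4, Ddit3, Cdkn1a and Ppara in each library, by group, with a black line at the group mean. Klb and Ppara are lowest in the fibrosis libraries, and Inhbb, Atf4, Ddit3 and Cdkn1a are highest there.

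The other activin chains were called in both comparisons with fibrosis livers, in opposite directions. Inhbb, the beta B chain of activin B, was at 0.765, 0.802 and 0.913 CPM in schisandrin B livers, at 6.64, 4.09 and 1.94 CPM in fibrosis livers, and at 0.429, 0.135 and 0.567 CPM in normal livers, where it rests on 5, 2 and 7 counts. It rose in fibrosis against normal livers by 3.48 on the log2 scale (SE 0.57, edgeR adjusted p = 0.000461) and fell in schisandrin B against fibrosis livers by 2.33 (SE 0.52, edgeR adjusted p = 0.00343). Inhbc, the beta C chain, was at 178, 209 and 129 CPM in schisandrin B livers, at 22.7, 85.9 and 31.5 CPM in fibrosis livers, and at 139, 131 and 115 CPM in normal livers. Fibrosis replicate 2 was the highest of its group for Inhbc as for Inhbe. Inhbc fell in fibrosis against normal livers by 1.46 on the log2 scale (edgeR adjusted p = 0.0166), a call lost without fibrosis replicate 3 (edgeR adjusted p = 0.0560), with library totals alone (0.0620) and with no filter (0.0564). It rose in schisandrin B against fibrosis livers by 1.88 (SE 0.43, edgeR adjusted p = 0.00486). Together with Gdf11, Inhbb and Inhbc made up the 3 subunits and related ligands tested beside Inhba and Inhbe. Of these 3, only Inhbb and Inhbc were called in these comparisons, 1 rising and 1 falling in each. In schisandrin B against normal livers 0 were called by edgeR (also at an unadjusted p under 0.05), DESeq2 or limma voom.

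Of the 5 activin receptors, 0 were called in any comparison by edgeR, DESeq2 or limma voom. Library totals alone gave 1 higher in fibrosis against normal livers and 1 lower in schisandrin B against fibrosis livers, and leaving out fibrosis replicate 1 gave 1 lower and 1 higher. At an unadjusted p under 0.05, 1 was higher in fibrosis than in normal livers and 1 was lower in schisandrin B than in fibrosis livers. Downstream, Smad4, the shared partner of the receptor-activated Smads, averaged 23.7 CPM in schisandrin B, 50.6 CPM in fibrosis and 25.3 CPM in normal livers. It rose in fibrosis against normal livers by 1.00 on the log2 scale (SE 0.16, edgeR adjusted p = 0.000374) and fell in schisandrin B against fibrosis livers by 1.09 (SE 0.16, edgeR adjusted p = 0.000237). Of 4 mediators tested, 1 rose and 0 fell in fibrosis against normal livers, where library totals alone gave 4 higher. In schisandrin B against fibrosis livers 0 rose and 3 fell (Smad2, Smad3 and Smad4), where upper-quartile scaling gave 1 lower. The Smad2 and Smad3 calls were also lost without any 1 of the schisandrin B libraries (edgeR adjusted p up to 0.142 for Smad2 and 0.103 for Smad3).

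Smad7, which turns off receptor signalling, averaged 10.6 CPM in schisandrin B, 5.74 CPM in fibrosis and 14.5 CPM in normal livers. It fell in fibrosis against normal livers by 1.34 on the log2 scale (edgeR adjusted p = 0.000473) and rose in schisandrin B against fibrosis livers by 0.88 (edgeR adjusted p = 0.00650). It thus went the other way from Fst, the other inhibitor described here. Smad7 was among 5 inhibitors and co-receptors tested beside Fst. Of these 5, 2 rose (Bambi and Smurf1) and 1 fell (Smad7 itself) in fibrosis against normal livers. In schisandrin B against fibrosis livers 1 rose (Smad7) and 2 fell (Tgfbr3 and Smurf1). The Smurf1 call there was lost without any 1 of the schisandrin B libraries (edgeR adjusted p = 0.0528 to 0.0948). The Tgfbr3 call was lost without schisandrin B replicate 1 or 3 or fibrosis replicate 3 (edgeR adjusted p = 0.0540 to 0.0688). In schisandrin B against normal livers edgeR called 0, with 1 higher and 1 lower at an unadjusted p under 0.05, whereas DESeq2 called 1 higher and 1 lower. Fstl3, a relative of Fst, was too low to be tested.

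**Figure D5:**
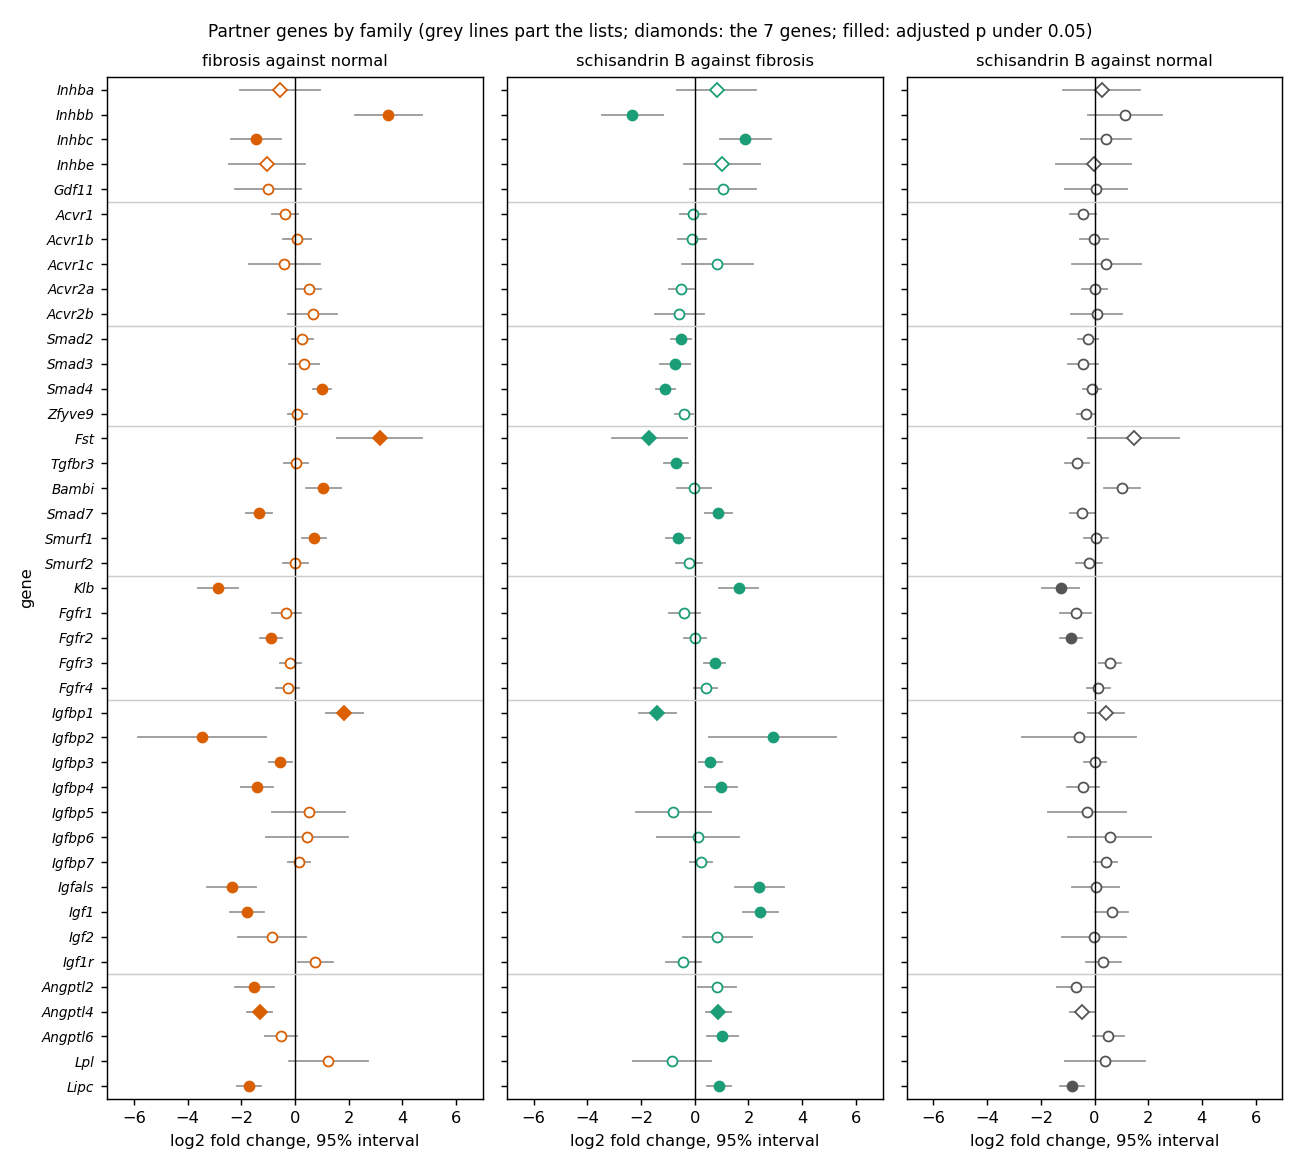
Log2 fold change with 95% interval of the partner genes, grouped by list, in the 3 comparisons (filled where the edgeR adjusted p was under 0.05, diamonds for the 7 genes). Inhbb has 3.48, Igfbp2 -3.48, Klb -2.88 and Igfals -2.37 in fibrosis against normal, and each turns to the other side in schisandrin B against fibrosis.

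With TMM scaling, Igfbp1 was the only gene called higher in fibrosis livers among the insulin-like growth factor genes. Of the 10 others tested, 0 rose and 5 fell in fibrosis against normal livers, and 5 rose and 0 fell in schisandrin B against fibrosis livers. The genes were the same 5 in both: Igf1, Igfals, Igfbp2, Igfbp3 and Igfbp4. Over all genes tested, 22.9% fell in fibrosis against normal and 22.5% rose in schisandrin B against fibrosis livers. With library totals alone the counts of the 10 genes were 2 higher and 4 lower in fibrosis against normal livers. In schisandrin B against fibrosis livers they were 2 higher and 0 lower. Without fibrosis replicate 1, or with no filter on low counts, 3 of the 10 were called lower in fibrosis against normal and 3 higher in schisandrin B against fibrosis livers. The Igfbp3 call in schisandrin B against fibrosis livers was lost without any 1 of the schisandrin B libraries (edgeR adjusted p = 0.0519 to 0.0831), and the Igfbp2 call in fibrosis against normal livers without fibrosis replicate 1 or 2 or normal replicate 3 (edgeR adjusted p = 0.0762 to 0.115). Igf1, the growth factor itself, averaged 1067 CPM in schisandrin B, 196 CPM in fibrosis and 680.4 CPM in normal livers. Its log2 changes were -1.80 ± 0.29 in fibrosis against normal and 2.44 ± 0.29 in schisandrin B against fibrosis livers (SE), with edgeR adjusted p-values of 0.000387 and 6.70e-05. Igfals, whose product holds the growth factor in a large plasma complex, averaged 366 CPM in schisandrin B, 69.0 CPM in fibrosis and 355 CPM in normal livers, at log2 changes of -2.37 and 2.41 in the same comparisons. In schisandrin B against normal livers edgeR called 0 of these 10 genes, with 1 higher at an unadjusted p under 0.05, and DESeq2 also called 0.

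Genes of lipases and other angiopoietin-like proteins were set beside Angptl4. Lipc, hepatic lipase, averaged 414 CPM in schisandrin B, 223 CPM in fibrosis and 736 CPM in normal livers. It fell in fibrosis against normal livers by 1.72 on the log2 scale (SE 0.21, edgeR adjusted p = 5.60e-05) and rose in schisandrin B against fibrosis livers by 0.89 (SE 0.20, edgeR adjusted p = 0.00372), as Angptl4 did. Angptl2 fell in fibrosis against normal livers by 1.53 (edgeR adjusted p = 0.00292), at 15.0 CPM in fibrosis and 43.1 CPM in normal livers. Angptl6 rose in schisandrin B against fibrosis livers by 1.03 (edgeR adjusted p = 0.00755), at 25.0 CPM in schisandrin B and 12.3 CPM in fibrosis livers. Of 4 genes tested in this list beside Angptl4, 2 fell and 0 rose in fibrosis against normal livers, 2 rose and 0 fell in schisandrin B against fibrosis livers, and 1 fell and 0 rose in schisandrin B against normal livers. The last was Lipc, at -0.83, a call lost without any 1 of the schisandrin B libraries and without normal replicate 2 or 3 (edgeR adjusted p = 0.0656 to 0.104). In schisandrin B against fibrosis livers, upper-quartile scaling, DESeq2 and limma voom each gave 3 higher.

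Programmes known to drive some of the 7 genes were described in the same way. Atf4, the central transcription factor of the integrated stress response, was at 106, 94.7 and 98.5 CPM in schisandrin B livers, at 561, 615 and 476 CPM in fibrosis livers, and at 137, 118 and 146 CPM in normal livers. Its log2 changes were 2.04 in fibrosis against normal and -2.47 in schisandrin B against fibrosis livers, with edgeR adjusted p-values of 1.02e-05 and 6.00e-06. Ddit3, the stress factor CHOP, averaged 14.7 CPM in schisandrin B, 195 CPM in fibrosis and 12.5 CPM in normal livers. Among the fibrosis libraries Atf4 ran from 476 to 615 CPM and Fgf21 differed 9.68-fold. Other genes of this response differed there by as little as 1.05-fold (Psat1) and as much as 6.67-fold (Nupr1). The part of this response in the level of Fgf21 was not tested. Of 18 genes of this response, 13 rose and 3 fell in fibrosis against normal livers (median log2 change 1.98), 1 rose and 12 fell in schisandrin B against fibrosis livers (median -1.86), and 0 rose and 2 fell in schisandrin B against normal livers. The 3 that fell in fibrosis were Atf5, Eif2ak1 and Eif2ak4, and with library totals alone 14 rose and 0 fell.

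Ppara, the fatty-acid sensor that drives Fgf21 and Angptl4 in fasting, was at 189, 259.6 and 252 CPM in schisandrin B livers, at 9.63, 28.8 and 45.0 CPM in fibrosis livers, and at 113, 128 and 144 CPM in normal livers. It fell in fibrosis against normal livers by 2.20 on the log2 scale (edgeR adjusted p = 0.00201) and rose in schisandrin B against fibrosis livers by 3.06 (edgeR adjusted p = 0.000360). Of 15 genes of its fasting programme, 2 rose and 8 fell in fibrosis against normal livers (median -1.08), 12 rose and 3 fell in schisandrin B against fibrosis livers (median 1.70), and 1 rose and 0 fell in schisandrin B against normal livers. Angptl4 moved with the majority of that list and Fgf21 against it. Plin2, which coats lipid droplets, went with Fgf21: it averaged 123 CPM in schisandrin B, 3740 CPM in fibrosis and 139 CPM in normal livers.

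Among 14 p53 genes, which include inducers of cell-cycle arrest and for which Gdf15 is a further known target, 11 rose and 1 fell in fibrosis against normal livers. In schisandrin B against fibrosis livers 0 rose and 12 fell, and in schisandrin B against normal livers 3 rose and 1 fell. Cdkn1a, the inhibitor p21, averaged 6.81 CPM in schisandrin B, 89.6 CPM in fibrosis and 1.26 CPM in normal livers. It was called higher in schisandrin B than in normal livers (log2 change 2.40, edgeR adjusted p = 0.00340), whereas Gdf15 was lower there. Of 12 hypoxia genes, 5 rose and 1 fell in fibrosis against normal livers, 0 rose and 5 fell in schisandrin B against fibrosis livers, and 0 rose and 1 fell in schisandrin B against normal livers. With library totals alone the first of these counts was 9 higher and 0 lower. Ndrg1, induced by low oxygen, averaged 8.77 CPM in schisandrin B, 152 CPM in fibrosis and 8.74 CPM in normal livers. Of 11 insulin, FoxO and glucocorticoid genes, 2 rose and 3 fell, 5 rose and 1 fell, and 3 rose and 1 fell in the same 3 comparisons, and library totals alone gave 2 higher in the second. Over all genes tested, 48.3% were called in the first comparison and 47.3% in the second. The hypoxia and insulin lists were near these shares there, so those numbers of calls are not results about the lists. Pck1, which insulin also represses, averaged 5032 CPM in schisandrin B and 782 CPM in fibrosis livers, where its libraries ran from 152 to 1196 CPM. It rose by 2.69 on the log2 scale in schisandrin B against fibrosis livers (edgeR adjusted p = 0.00396), where Igfbp1 fell. The part of insulin in either change was not tested.

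Other cell types' markers moved too. The summed CPM of 6 cholangiocyte markers was 13.3 to 29.5 in schisandrin B, 52.4 to 64.4 in fibrosis and 20.1 to 25.1 in normal livers, and that of 6 neutrophil markers was 2.01 to 6.42 in schisandrin B, 15.4 to 20.8 in fibrosis and 5.01 to 10.1 in normal livers. Both sums were thus highest in fibrosis, where the means of Fgf21, Gdf15, Igfbp1, Inhbb and Fst were highest. Of 5 cholangiocyte markers tested, 3 rose and 0 fell in fibrosis against normal livers, and of 3 neutrophil markers 2 rose and 0 fell. Single markers at low levels went other ways. Mpo averaged 0.451 CPM in schisandrin B, 0.0757 CPM in fibrosis and 0.638 CPM in normal livers, and Sox9 0.594, 0.629 and 0.913 CPM. Of the neutrophil markers, Elane was at 0 in schisandrin B and in fibrosis livers. The 10 stellate cell and fibroblast markers summed to 498 to 682 CPM in schisandrin B, 283 to 466 CPM in fibrosis and 265 to 420 CPM in normal livers. Col3a1 carried most of that sum, and single markers went other ways: Acta2, the muscle actin of activated stellate cells, averaged 4.55 CPM in schisandrin B, 16.5 CPM in fibrosis and 5.69 CPM in normal livers. Of the 10 markers, 3 rose and 1 fell in fibrosis against normal and 5 rose and 2 fell in schisandrin B against fibrosis livers. Without fibrosis replicate 1 the second of these counts was 2 higher and 2 lower. In schisandrin B against normal livers 3 rose and 0 fell. That count of higher markers ran from 0 to 5 over the alternatives, with 1 under no filter and 5 by DESeq2. The 9 Kupffer cell and macrophage markers summed to 917 to 1377 CPM in schisandrin B, 921 to 1920 CPM in fibrosis and 1546 to 2396 CPM in normal livers, and the 8 of sinusoidal endothelium to 343 to 372 CPM, 270 to 334 CPM and 376 to 502 CPM in the same order of groups. The 8 T and NK cell markers summed to 11.2 to 14.5 CPM in schisandrin B, 6.13 to 9.55 CPM in fibrosis and 17.7 to 25.4 CPM in normal livers, and the 5 B and plasma cell markers to 3.57 to 4.11 CPM, 1.70 to 2.00 CPM and 5.58 to 9.64 CPM, with Cd79a at 0 in schisandrin B livers. In fibrosis against normal livers 0 rose and 6 fell of 6 T and NK cell markers tested, and 0 rose and 2 fell of 3 B and plasma cell markers. Of 8 sinusoidal endothelium markers 0 rose and 4 fell, and of 9 Kupffer cell and macrophage markers 0 rose and 1 fell. With library totals alone 1 T and NK cell marker fell. The part of these cell types in the results for the 7 genes was not tested. In whole-liver RNA, fewer cells of a type and less RNA per cell cannot be told apart.

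Finally, the genes whose profiles over the 9 libraries were most like each of the 7 were found among 11194 genes, by the root mean square difference of centred log2 CPM. Fgf21 was nearest to Phlda1 (0.508), Bag3 (0.578) and Lonrf3 (0.600). Phlda1 averaged 10.2 CPM in schisandrin B, 299 CPM in fibrosis and 7.59 CPM in normal livers. Gdf15 was nearest to Fasn (0.616), fatty acid synthase, then Nqo1 (0.714), a quinone reductase, and Slc7a5 (0.719), an amino acid transporter. Fasn averaged 93.1 ± 25.5 CPM in schisandrin B, 994 ± 351 CPM in fibrosis and 822 ± 331 CPM in normal livers, so it shared with Gdf15 the lowest level in schisandrin B livers.

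Igfbp1 and Angptl4 had closer neighbours. Igfbp1 was nearest to Rai14 (0.224), Epn2 (0.225) and Ubtd2 (0.228), and Angptl4 to Dguok (0.119), Clec2g (0.125) and Blvra (0.148). The distances are smaller where the gene itself varies less: the SD of log2 CPM over the 9 libraries was 0.62 for Angptl4 and 0.91 for Igfbp1, but 2.32 for Fgf21. Inhba was nearest to Kcnk13 (0.389), Cpeb4 (0.451) and Nkg7 (0.461), Inhbe to Mlc1 (0.346), Tmlhe (0.353) and Slc16a13 (0.372), and Fst to Svep1 (0.486), Arap2 (0.556) and Tagln (0.565). Mlc1 averaged 65.4 ± 6.39 CPM in schisandrin B, 33.5 ± 26.1 CPM in fibrosis and 65.9 ± 16.2 CPM in normal livers, and so had a wide spread in fibrosis like that of Inhbe. The points share their libraries and scaling, and none of the 7 genes was among the nearest of another.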

How the data were processed

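Liver RNA was sequenced on the Ion Proton platform, and samples were grouped by their source names. Per the labels' protocols, RNA was extracted with Trizol and a RIN above 8.0 was required. The values deposited by the authors are raw whole-number counts for each gene, made with an aligner and counter not given in the sources used here, and strand use in counting is not stated. The labels name the organism mouse and the submitters' processing notes list the build GRCm38, whereas the strain is Wistar rat and the symbols are rat symbols. Mouse sequences and promoters were therefore not used here. Levels were not compared between genes because no lengths were used.

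The analysis used edgeR 4.0.16 (R 4.3.3), with filterByExpr, TMM scaling and a robust quasi-likelihood F test over all 9 libraries in 3 groups, with no covariate. P-values were adjusted by Benjamini and Hochberg over the 14581 genes tested, and an adjusted p under 0.05 was a call. "Higher", "rose", "lower" and "fell" refer to calls. The scripts were tested on simulated data. The 7 genes and all gene lists were chosen with earlier results of these data known. A gene left out of the lists after they were drawn up is not reported here. Partner genes were named by lowest adjusted p within each list, up to 4 per pathway list and 3 per regulator or hepatokine list, and a few others for what they are known to do. Profiles were compared with a prior count of 2 among genes with a mean of at least 1 CPM. Alternatives were DESeq2 1.42.0 size factors and test, upper-quartile scaling, library totals, no filter, a mean of at least 5 CPM, limma 3.58.1 voom, only the 2 groups compared, omission of the 20 most counted genes and omission of each library. Floors cover counting error only. Intervals on log2 changes rest on the SE of the quasi-likelihood fit, which includes the spread between libraries. Figures were drawn with matplotlib 3.10.9.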

Additional observations from a re-analysis of the deposited data

How the results depend on the processing

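Fgf21, Igfbp1 and Angptl4 kept direction and call under all 15 alternatives in fibrosis against normal and in schisandrin B against fibrosis livers, as did Gdf15 in schisandrin B against fibrosis livers. Fst did so in fibrosis against normal livers under the 14 that gave it a value. Fgf21 ranged over 3.28 to 5.10 and -5.37 to -3.54 on the log2 scale, and Gdf15 over -4.28 to -3.05. Inhba and Fst had no value with the filter of a mean of at least 5 CPM, and DESeq2 gave Fst no adjusted p in schisandrin B against normal livers. Inhbe, not called in schisandrin B against normal livers, changed sign with library totals (0.13), without schisandrin B replicate 3 (0.09) and without normal replicate 1 (0.13). The range with a library left out was -0.16 to 0.13, and the cause was not tested.

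With library totals alone, all genes called in fibrosis against normal livers were 5651 higher and 1917 lower, and 1231 were higher in schisandrin B against normal livers, where the median of all genes moved to 0.16. Using only the 2 groups compared gave 1467 higher and 1484 lower in schisandrin B against normal livers, against 766 and 765. Leaving out 1 library gave 351 to 505 higher and 351 to 501 lower there, with fewer samples. Of the 7 genes, 0 were called lower in schisandrin B against normal livers with no filter, and 0 to 1 with a library left out. With limma voom, 2 were called lower in fibrosis against normal and 2 higher in schisandrin B against fibrosis livers, and leaving out a library gave 1 to 2 in both. Of the 3 nearest profiles, a prior count of 0.5 kept 3 for Igfbp1, Angptl4 and Inhbe, 2 for Fgf21, Gdf15 and Inhba and 1 for Fst. No paired analysis was possible because the labels give no replicate numbers that pair libraries across groups. Low counts limit Fst and Inhba most.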

Other observations

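Other signals that liver secretes also differed between the groups. Of 13 such genes tested, 4 rose and 6 fell in fibrosis against normal livers, 7 rose and 3 fell in schisandrin B against fibrosis livers, and 1 rose and 1 fell in schisandrin B against normal livers. With no filter on low counts only 1 rose in fibrosis against normal livers. The gene that fell in schisandrin B against normal livers was Smoc1, a call lost under 9 of 15 alternatives (adjusted p up to 0.180). Smoc1, a secreted matricellular protein, averaged 119 CPM in schisandrin B, 18.2 CPM in fibrosis and 181 CPM in normal livers, with edgeR log2 changes of -3.31 in fibrosis against normal and 2.71 in schisandrin B against fibrosis livers. Lect2, a hepatocyte chemotactic protein, averaged 179 CPM in schisandrin B, 27.3 CPM in fibrosis and 134 CPM in normal livers. Tsku, which encodes tsukushi, averaged 499 CPM in schisandrin B and 81.6 CPM in normal livers, a log2 change of 2.61 (edgeR adjusted p = 0.00425). Of the 7 genes described above, only Gdf15 was called in that comparison.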
